A study of Mus musculus with 6 samples.

Results

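The genes described are those of the CatSper channel, the calcium channel of the sperm flagellum. They were taken by name, 4 pore-forming subunits (Catsper1, Catsper2, Catsper3 and Catsper4) and 6 auxiliary subunits (Catsperb, Catsperd, Catspere1, Catsperg1, Catsperg2 and Catsperz), and all 10 were found among the 38715 genes of the table. RNA was sequenced from whole mouse testis in 6 libraries, 3 titled Control and 3 titled Middle. The study names a control group and a group exposed to MES, and Middle was taken for the latter, being the only other title. The sources used here do not give what MES is, its dose and timing, or the strain, genotype and age of the mice. The labels do not state whether 1 animal or several gave the libraries, and p-values cover the spread between libraries alone, which may be technical.

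CatSper opens when the sperm interior turns alkaline and lets calcium into the principal piece of the tail, which drives the whip-like beat called hyperactivation. The pore is a ring of different subunits, each encoded by its own gene, and male mice that lack any one of them are infertile. Auxiliary subunits with large extracellular parts form a canopy over the pore, and small cytoplasmic proteins tie it to pH and calcium sensing. The genes are transcribed in late spermatocytes and spermatids, so whole testis holds their transcripts together with those of earlier germ cells and somatic cells. In such bulk tissue, fewer cells of a type and less RNA per cell cannot be told apart.

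Reads on genes numbered 38820385 to 58389391 per library, and levels are in RPKM, reads scaled to gene length and library size. Each CatSper gene had 360 to 13613 reads in every library, all 10 passed the filter on low values (1 RPKM or more as the mean of either group), and 15040 genes in all were tested with limma. Middle replicate 1 stood apart: over 14003 genes, a library's deviation from the mean had a rank correlation with GC content of 0.45 in it, against 0.028 and -0.071 in Middle replicates 2 and 3 and -0.29, -0.22 and -0.25 in Control replicates 1 to 3. With gene length over 15040 genes, the rank correlation was 0.25 in Middle replicate 2 and -0.11 to 0.10 in the other libraries. Genes are not independent replicates, so these correlations are descriptions.

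No CatSper gene passed the test between Middle and Control, and Catsper4 had the lowest ratio. Its mean in Middle was 0.621 times that in Control, while the other 9 ratios ran from 0.816 (Catsperg1) to 1.07 (Catsper3). Of the 10 genes, 8 lay below 0 on the log2 scale and 2 above, against 44.1% of all tested genes below 0. The count past an adjusted p of 0.05 was 0 of 10 with limma and 0 of 10 with limma-voom on reads recovered from the RPKM values, where 0.0532% of all tested genes passed with limma. At an unadjusted p under 0.05 there were 2 of 10, Catsper2 and Catsper4, with either tool, against 20.7% of all tested genes. That count was 6 without Middle replicate 2 and 1 without Middle replicate 1, Control replicate 1 or Control replicate 3, or with a replicate block. The 20.7% is from the main limma fit. No such share was taken in these other settings, so their counts have no background to be set against. The median log2 fold change was -0.17, beside 0.027 over all tested genes, and it was -0.064 without Middle replicate 1.

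**Figure D1:**
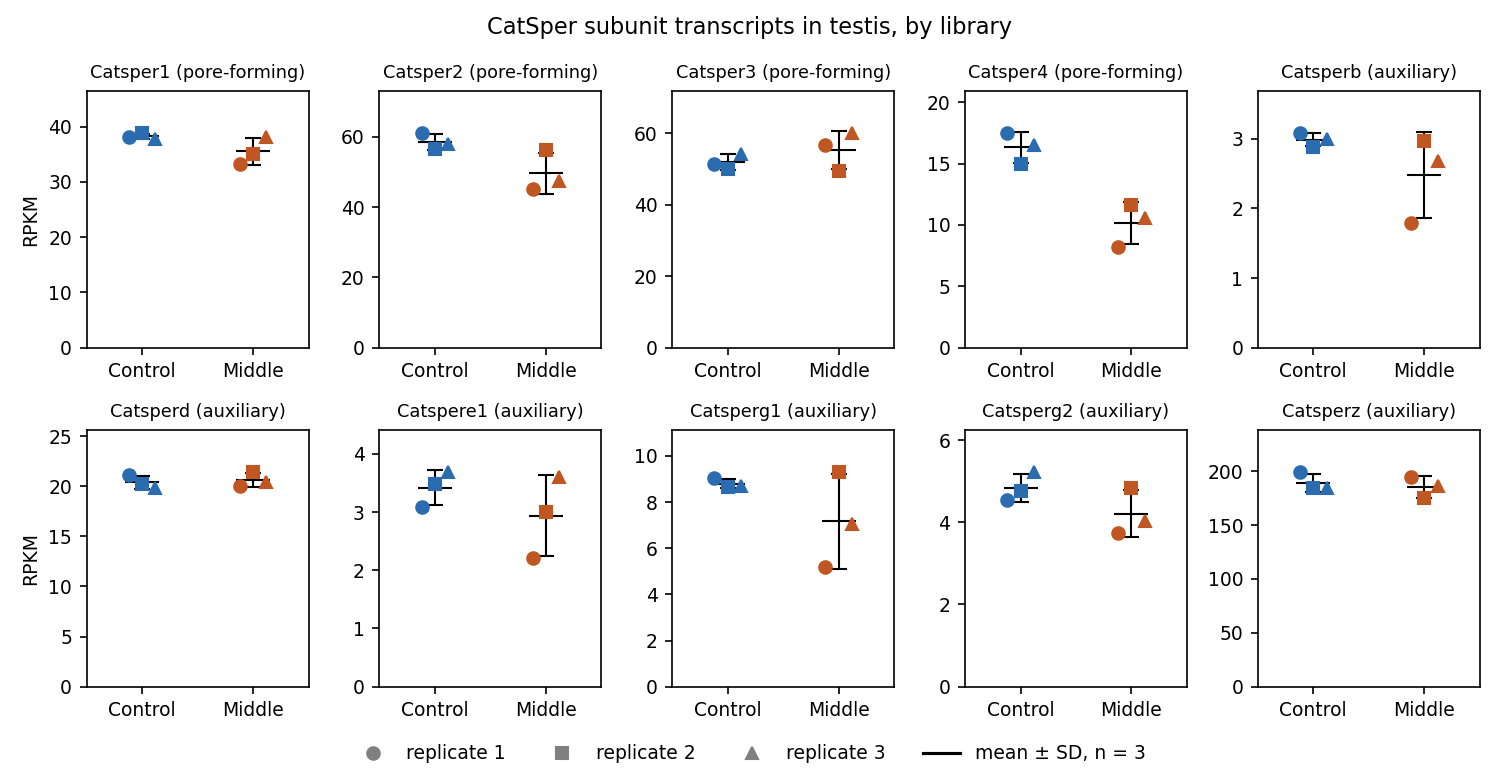
Level of each CatSper subunit in RPKM (vertical axes from 0, with a scale of their own in each panel) in the 3 Control and 3 Middle testis libraries. Points are libraries, with a shape for each replicate number, and bars are the mean ± SD. The groups are apart for Catsper4 and Catsper2. Middle replicate 1 is the lowest library for 7 of the 10 genes, Catsper1, Catsper2, Catsper4, Catsperb, Catspere1, Catsperg1 and Catsperg2.

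Catsper1 (chromosome 19, 5385769 to 5394308, GRCm39) encodes the pore subunit with a histidine-rich amino-terminal end that is linked to pH sensing. It was at 38.1, 38.8 and 37.8 RPKM in Control replicates 1 to 3 and at 33.3, 35.1 and 38.2 in Middle replicates 1 to 3. Middle replicate 3 lay among the Control libraries and the other Middle libraries below them, so the groups overlapped. The means were 38.2 ± 0.51 and 35.5 ± 2.46 RPKM (SD, n = 3 each), and the log2 fold change of -0.11 (95% interval -0.26 to 0.049) did not pass (adjusted p = 0.374, limma). Without Middle replicate 1 it was -0.061.

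Catsper2 (chromosome 2, 121223112 to 121244273) encodes the second pore subunit. It was at 61.0, 56.5 and 57.9 RPKM in Control and at 45.1, 56.1 and 47.4 in Middle. The Middle libraries were all below the Control libraries, narrowly for Middle replicate 2. The log2 fold change was -0.24 (95% interval -0.44 to -0.036) and did not pass over all genes (adjusted p = 0.201, limma). Of its exon bases, 18 are shared with Pdia3 on the other strand, 0.487% of its length.

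Catsper3 (chromosome 13, 55932381 to 55956811), the third pore subunit, was the only pore gene with a higher mean in Middle. It was at 51.4, 49.9 and 54.3 RPKM in Control and at 56.7, 49.5 and 60.0 in Middle. Middle replicate 2 was the lowest of all 6 libraries and the other Middle libraries were the highest, so the groups overlapped. The log2 fold change was 0.09 (95% interval -0.10 to 0.28; adjusted p = 0.536, limma), 0.17 without Middle replicate 2 and 0.029 without Middle replicate 3.

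Catsper4 (chromosome 4, 133939281 to 133954694), the fourth pore subunit, was at 17.5, 14.97 and 16.5 RPKM in Control and at 8.24, 11.6 and 10.6 in Middle. Every Middle library lay below every Control library, and Middle replicate 1 was the lowest. The means were 16.3 ± 1.25 and 10.1 ± 1.72 RPKM (SD, n = 3 each). The log2 fold change of -0.65 (SE 0.12, 95% interval -0.92 to -0.37) had an unadjusted p of 0.00076 and an adjusted p of 0.177 (limma), so it did not pass. Of all tested genes, 65 (0.432%) had a log2 fold change as low or lower, and 59 (0.392%) had an unadjusted p as small or smaller. Without Middle replicate 1 the ratio was 0.68 and the log2 fold change -0.52 (adjusted p = 0.133, limma). Over the 16 alternatives tried, the adjusted p ran from 0.082 (limma-voom on recovered reads) to 0.513 (limma).

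Groups that do not overlap were thus seen for 2 of 10 CatSper genes, both lower in Middle. Among all tested genes the Middle libraries were all lower for 11.4% and all higher for 17.9%, so 2 of 10 says little about the subunits as a set.

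The promoter of Catsper4 is shown because this gene had the lowest ratio, and that of Catsperz because it was the most abundant and differed little between groups. The bases lie before every start in the RefSeq gene (GRCm38.p6, another build than that of the table), run 5′ to 3′ on the gene's strand, and capitals mark matches to the motifs searched.
Catsper4 promoter (chr4:134227432-134227633, minus strand): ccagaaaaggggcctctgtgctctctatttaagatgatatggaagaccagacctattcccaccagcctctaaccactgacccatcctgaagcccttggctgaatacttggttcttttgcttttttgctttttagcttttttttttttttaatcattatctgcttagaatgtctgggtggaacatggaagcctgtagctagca
Catsperz promoter (chr19:6925381-6925630, minus strand): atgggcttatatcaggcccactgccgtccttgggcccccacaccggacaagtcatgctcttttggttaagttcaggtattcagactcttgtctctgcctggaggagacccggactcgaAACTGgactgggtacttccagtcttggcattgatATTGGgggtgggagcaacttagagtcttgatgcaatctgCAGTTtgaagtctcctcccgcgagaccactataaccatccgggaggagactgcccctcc

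Motifs were searched on both strands in windows of 250 bases before to 50 after each start, and 8 of the 10 CatSper genes had a window. Catsperd and Catsperg1 had 2 windows each, and a gene was counted if any of its windows held the motif. The percentages beside these counts are of single windows, so the comparison is approximate. The cAMP response element TGACGTCA, bound by the spermatid factor CREM, was in 0 of 8, beside 1.79% of the 32851 windows in the table. Its core TGACG, which the full element contains, was in 2 of 8 (Catsper2 and Catsperd), beside 20.8% of windows. The RFX core GTTGCC was in 0 of 8 (12.5% of windows) and the SOX core ACAATGG in 0 of 8 (3.66%). The TATA box TATAAA was in 1 of 8 (13.6%), the CCAAT box in 3 (37.4%), the GC box GGGCGG in 3 (35.7%), the E-box CANNTG in 7 (72.3%) and the MYB core AACNG in 6 (80.3%). No printed base of Catsper4 is in capitals, as its 1 match, an E-box, runs across the end of the stretch shown, while Catsperz holds 2 MYB cores and 1 CCAAT box. These matches are letters in a window and were not tested as binding sites.

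The channel holds its pore subunits as single copies, so the transcripts were also compared within each library, where depth and scaling cancel. Catsper4 made up 10.4%, 9.34% and 9.92% of the RPKM summed over the 4 pore genes in Control replicates 1 to 3 and 5.75%, 7.62% and 6.77% in Middle replicates 1 to 3. Catsper3 made up 30.6%, 31.2% and 32.6% in Control and 39.5%, 32.5% and 38.4% in Middle, overlapping only between Control replicate 3 and Middle replicate 2. Catsper2 was at 35.5 ± 0.77% and 32.9 ± 3.46%, and Catsper1 at 23.2 ± 0.87% and 23.6 ± 0.76% (SD, n = 3 each). Shares sum to 100%, so a lower share of one gene raises the others.

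The log2 ratio of Catsper4 to the mean of the other 3 pore genes was -1.58 ± 0.09 for Control and -2.19 ± 0.21 for Middle (SD, n = 3 each), lower in 3 of 3 Middle libraries. The difference of -0.61 had an exact two-sided permutation p of 0.1, the smallest that 3 against 3 libraries allow, and 0.2 after Benjamini-Hochberg adjustment over the 4 pore genes. For Catsper3 the ratio was 0.65 ± 0.067 and 1.09 ± 0.25 (SD, n = 3 each), higher in 3 of 3 Middle libraries, with the same exact p of 0.1 and adjusted p of 0.2. Catsper1 differed by 0.18 (exact p = 0.2, adjusted p = 0.267) and Catsper2 by -0.0056 (exact p = 1, adjusted p = 1), with overlapping groups for both. The 4 ratios share their genes and are not separate results.

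**Figure D2:**
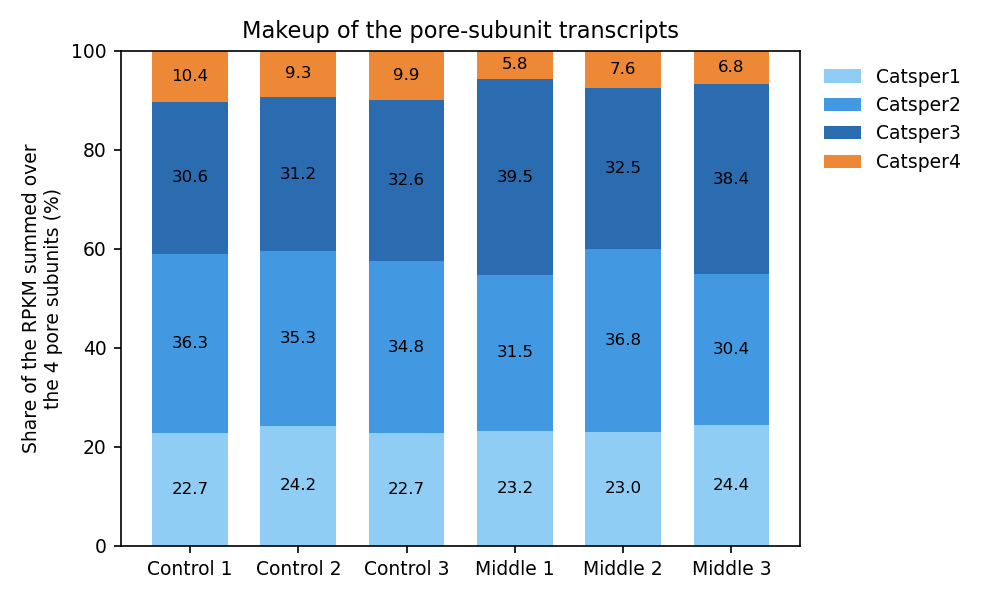
Share of each pore subunit in the RPKM summed over Catsper1 to Catsper4 (vertical axis, percent) for each library, with the values printed in the bars. The Catsper4 share is 9.34% to 10.4% in the Control libraries and 5.75% to 7.62% in the Middle libraries.

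Among the auxiliary subunits, Middle replicate 1 was the lowest Middle library for Catsperb, Catspere1, Catsperg1, Catsperg2 and, narrowly, Catsperd, but not for Catsperz. Catsperb (chromosome 12, 101370912 to 101592268), a canopy subunit, was at 3.08, 2.88 and 3.003 RPKM in Control and at 1.79, 2.97 and 2.68 in Middle. Only Middle replicates 1 and 3 lay below the Control libraries. The log2 fold change was -0.21 (95% interval -0.51 to 0.089; adjusted p = 0.362, limma) and -0.06 without Middle replicate 1. The gene has a GC content of 37.2%, the lowest of the 10, and with each library's trend on GC content removed the log2 fold change was -0.073.

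Catspere1 (chromosome 1, 177635997 to 177790244), another canopy subunit, was at 3.09, 3.48 and 3.68 RPKM in Control and at 2.21, 3.01 and 3.60 in Middle. Middle replicates 1 and 2 lay below Control and Middle replicate 3 within it. The log2 fold change was -0.18 (adjusted p = 0.444, limma), -0.038 without Middle replicate 1 and -0.30 without Middle replicate 3. Its GC content is 40.4%, and the log2 fold change was -0.081 with the GC trend removed.

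Mice have 2 genes for the gamma subunit of the canopy, Catsperg1 (chromosome 7, 28880746 to 28913460) and Catsperg2 (chromosome 7, 29396644 to 29426457). Catsperg1 and Catsperg2, with the longest exon totals of the 10 genes (7044 and 7030 bases), were both highest in Middle replicate 2 among the Middle libraries. The same held for the shorter Catsperb (5524 bases), Catsper2 (3695), Catsperd (3590) and Catsper4 (2101). Catspere1 (3435 bases), Catsper1 (2188), Catsper3 (1361) and Catsperz (1262) were highest in another Middle library. Except for Catsper4, the genes highest in Middle replicate 2 were thus longer than those that were not. The part of gene length in these values was not tested. Catsperg1 was at 9.02, 8.65 and 8.70 RPKM in Control and at 5.18, 9.29 and 7.05 in Middle, with Middle replicate 2 above all Control libraries and the other Middle libraries below them. Catsperg2 was at 4.53, 4.76 and 5.21 RPKM in Control and at 3.73, 4.84 and 4.04 in Middle. Here Middle replicate 2 lay within Control and the other Middle libraries below it. The log2 fold changes were -0.29 (95% interval -0.67 to 0.091; adjusted p = 0.329) and -0.17 (95% interval -0.39 to 0.054; adjusted p = 0.331, limma), and they were -0.11 and -0.10 without Middle replicate 1 and -0.47 and -0.25 without Middle replicate 2. Their GC contents, 49.3% and 49.02%, are close to those of Catsper3 and Catsperd, and removal of the GC trend left them at -0.30 and -0.17.

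Catsperd (chromosome 17, 56935143 to 56971456), the delta subunit of the canopy, showed the least difference. It was at 21.1, 20.3 and 19.8 RPKM in Control and at 19.99, 21.4 and 20.4 in Middle, with the groups interleaved. The log2 fold change was 0.014, with a 95% interval of -0.13 to 0.15 (adjusted p = 0.900, limma), and its sign turned under both other scalings of the libraries (-0.0041 and -0.0056).

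Catsperz (chromosome 19, 6899739 to 6902748), a small cytoplasmic subunit that pairs with the calcium-binding protein EFCAB9, was at 199, 185 and 184 RPKM in Control and at 194, 175 and 187 in Middle. The libraries overlapped, and the log2 fold change of -0.031 had a 95% interval of -0.18 to 0.12 (adjusted p = 0.787, limma). Of its exon bases, 587 (46.5%) are also exon bases of Kcnk4 on the same strand. Kcnk4, a potassium channel gene, was at 41.9 to 45.2 RPKM in Control and 40.02 to 44.5 in Middle. The sources used here do not say how reads in the shared part were assigned, so the level of Catsperz is uncertain.

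**Figure D3:**
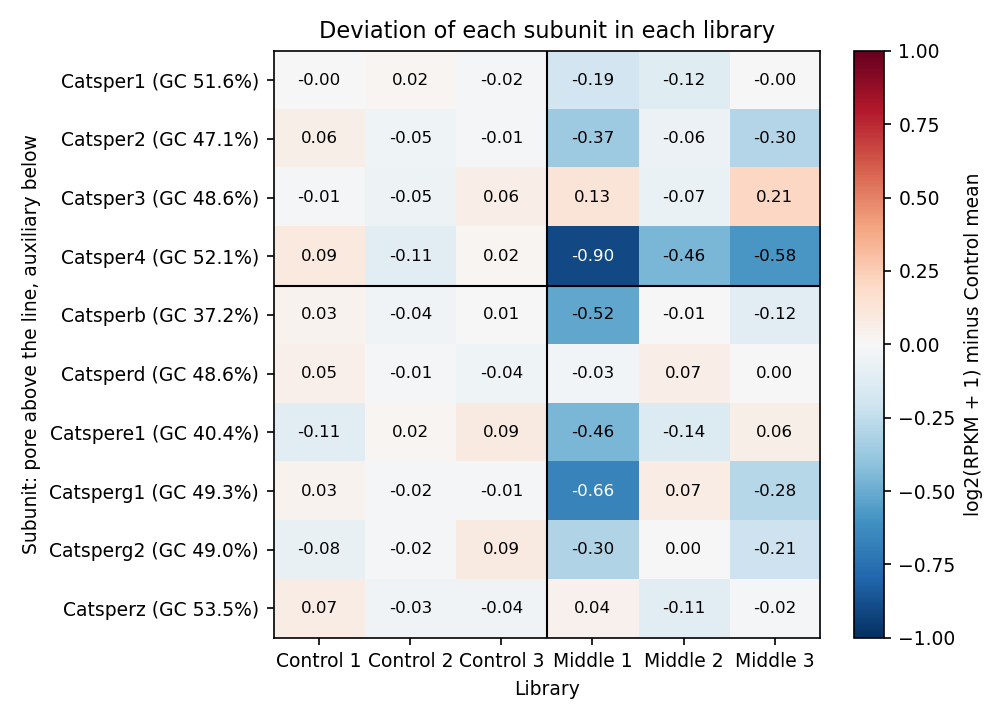
Deviation of log2(RPKM + 1) from the Control mean (color and printed value) for each CatSper subunit (rows, with the GC content of its longest transcript) in each library (columns). Middle replicate 1 holds the lowest value of 7 of the 10 rows, from -0.19 for Catsper1 to -0.90 for Catsper4, and Catsper4 is the one row below -0.4 in every Middle library.

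Per unit of length, the order of levels over the 6 libraries ran from Catsperz (mean 187 RPKM) through Catsper2 (54.01), Catsper3 (53.6), Catsper1 (36.9), Catsperd (20.5), Catsper4 (13.2), Catsperg1 (7.98), Catsperg2 (4.52) and Catspere1 (3.18) to Catsperb (2.73). Catsper2 and Catsper3 could not be ordered, as Catsper2 was the higher in only 4 of 6 libraries. The ranges over libraries also overlapped for Catsper4 with Catsperg1, Catsperg1 with Catsperg2, and Catspere1 with Catsperb, but within each library the first of each pair was higher in 6 of 6. Catsperz and Catsperb were thus the ends of a wide range within 1 complex.

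Pore-forming and auxiliary genes had the same median log2 fold change, -0.17 each, with 3 of 4 and 5 of 6 genes below 0. In single libraries the median deviation from the Control mean was -0.28 for pore and -0.38 for auxiliary genes in Middle replicate 1, -0.094 and -0.001 in Middle replicate 2, and -0.15 and -0.067 in Middle replicate 3. The difference between the classes turned with the library, from -0.093 on the side of lower pore genes in Middle replicate 2 to 0.098 on the other side in Middle replicate 1. With the GC trend removed, which moved Catsperb and Catspere1 toward 0, the pore median lay 0.10 below the auxiliary one. Without Catsper4 the pore median was -0.11. No test was run on a value summed over so few genes.

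The paired copies of the gamma and epsilon genes were compared within libraries, a comparison chosen after their values were seen. Transcripts of Catsperg1 and Catsperg2 match at 96.3% over 4411 bases, and those of Catspere1 and its neighbor Catspere2 (chromosome 1, 177810989 to 178000271) at 90.2% over 1814 bases and at 98.2% over another 735 bases. The sources used here do not say how reads that match both copies were placed, so the split within a pair is uncertain. Catsperg1 over Catsperg2 was 1.99, 1.82 and 1.67 in Control and 1.39, 1.92 and 1.74 in Middle, which overlapped. Catspere1 over Catspere2 was 1.81, 1.89 and 1.84 in Control and 0.967, 1.37 and 1.48 in Middle, lower in 3 of 3 Middle libraries. The spread of this ratio was 0.042 (SD) in Control and 0.27 in Middle (n = 3 each).

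Catspere2 lay on the other side from Catspere1. It was at 1.71, 1.84 and 2.003 RPKM in Control and at 2.29, 2.20 and 2.43 in Middle, with no overlap. Among all tested genes the Middle libraries were all higher for 17.9%. The log2 fold change of Catspere2, 0.21 (SE 0.075), did not pass (adjusted p = 0.192, limma). Summed over both epsilon genes, the level was 21.5 ± 1.80 CPM (reads scaled to the library total) for Control and 22.2 ± 2.76 for Middle (SD, n = 3 each), a difference within the spread. The sum of both gamma genes was 95.9 ± 1.83 and 80.1 ± 18.5 CPM, also overlapping, with 62.7 in Middle replicate 1.

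**Figure D4:**
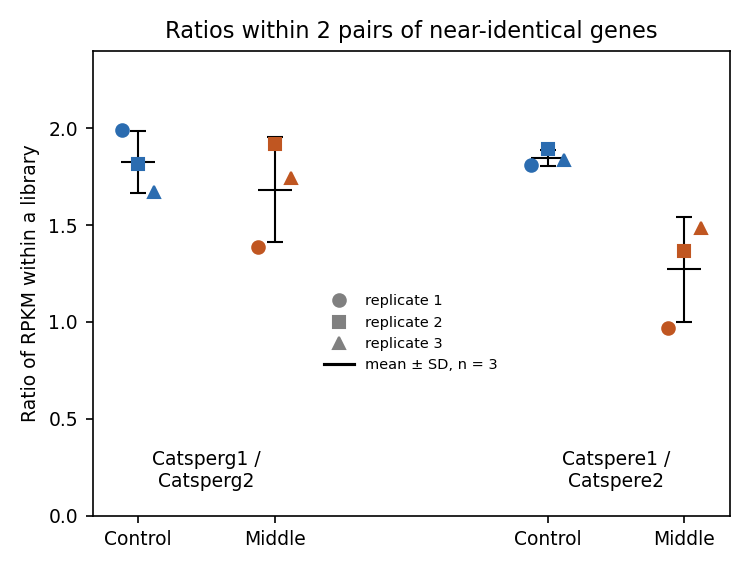
Ratio of RPKM within each library (vertical axis) for Catsperg1 over Catsperg2 and Catspere1 over Catspere2, as points by library with mean ± SD. The epsilon ratio is 1.81 to 1.89 in Control and 0.967 to 1.48 in Middle, and the gamma ratio overlaps between the groups.

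Of 7 further components of the channel assembly, 5 lay below 0 in Middle and 2 above, and 0 passed over all genes. At an unadjusted p under 0.05 there was 1 of 7, Catspere2, against 20.7% of all tested genes (limma). Of all tested genes, 44.1% lay below 0. C2cd6, which encodes the tau subunit needed to carry the channel into the flagellum, was at 57.7, 55.1 and 59.5 RPKM in Control and at 32.04, 56.6 and 44.7 in Middle. Its log2 fold change was -0.398 (95% interval -0.81 to 0.015; adjusted p = 0.251, limma). Among the Middle libraries it was lowest in replicate 1 and highest in replicate 2, which lay within Control. That order was shared with Catsper2, Catsper4, Catsperb, Catsperd, Catsperg1 and Catsperg2. The ratio of means was 0.77, and 0.88 without Middle replicate 1. C2cd6 has a GC content of 42.1% and 7601 exon bases. Of its exon bases 11.6% are shared with Gm55816 on the same strand, at 86.7 to 101 RPKM in Control and 42.6 to 91.5 in Middle.

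Efcab9, the calcium-binding partner of Catsperz, was at 87.0 ± 3.03 RPKM (Control) and 80.9 ± 6.27 RPKM (Middle), and Slco6c1, a transporter found in the assembly, at 47.1 ± 2.86 and 41.3 ± 5.11 (SD, n = 3 each). Trim69, a ubiquitin ligase found with the channel, was at 56.2 ± 1.44 and 55.1 ± 2.47 RPKM. The small membrane subunits Tmem249 and Tmem262 were at 4.41 ± 0.71 and 4.55 ± 0.32 and at 7.59 ± 0.85 and 6.39 ± 1.395 RPKM (SD, n = 3 each). The groups overlapped for these 5 genes.

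**Figure D5:**
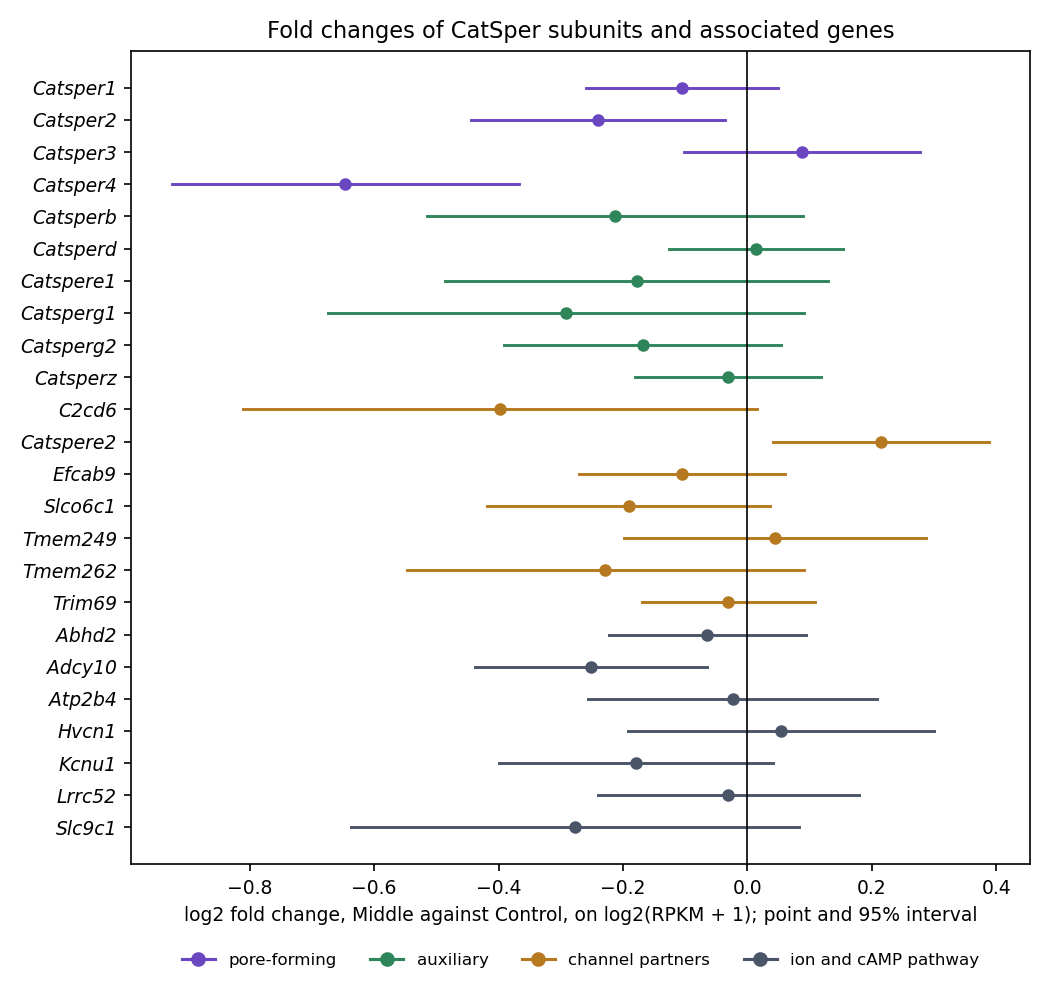
Log2 fold change of Middle against Control on the log2(RPKM + 1) scale (horizontal axis) with its 95% interval for the CatSper subunits, further components of the assembly and genes that set pH, voltage, cAMP and calcium in sperm. Catsper4 lies lowest at -0.65, and the intervals of Catsper2, Catsper4, Catspere2 and Adcy10 leave out 0 before adjustment for the number of genes tested.

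Genes that set the conditions under which CatSper opens were taken as a further list of 7, of which 6 lay below 0, 1 above and 0 passed. At an unadjusted p under 0.05 there was 1 of 7, Adcy10 (limma). The shares of all tested genes were 44.1% below 0 and 20.7% at that p. Adcy10, the soluble adenylyl cyclase that makes cAMP in sperm, was at 14.6 ± 0.42 RPKM (Control) and 12.1 ± 1.21 RPKM (Middle; SD, n = 3 each) without overlap, with a log2 fold change of -0.25 (adjusted p = 0.181, limma). Slc9c1, the sperm sodium-proton exchanger, was at 25.8 ± 2.26 and 21.4 ± 4.71 RPKM, with 16.04 in Middle replicate 1. Kcnu1, the alkaline-activated potassium channel of sperm, was at 7.08 ± 0.36 and 6.16 ± 0.80 RPKM, and its partner Lrrc52 at 12.1 ± 0.46 and 11.9 ± 1.46. The proton channel gene Hvcn1 was at 2.59 ± 0.33 and 2.73 ± 0.41, Abhd2, a lipase of the progesterone response, at 8.27 ± 0.41 and 7.87 ± 0.37, and the calcium pump gene Atp2b4 at 4.08 ± 0.25 and 4.02 ± 0.62 RPKM (SD, n = 3 each). The groups overlapped for all of these except Adcy10. Among all tested genes the Middle libraries were all lower for 11.4% and all higher for 17.9%.

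Structural genes of the principal piece, where the channel sits, had a median log2 fold change of -0.17 with 5 of 6 below 0 and 0 past the test. At an unadjusted p under 0.05 there were 3 of 6. Of all tested genes, 44.1% lay below 0 and 20.7% had an unadjusted p under 0.05 (limma). Akap4, the main protein of the fibrous sheath, was at 434 ± 20.2 RPKM (Control) and 375 ± 16.3 RPKM (Middle; SD, n = 3 each), without overlap (adjusted p = 0.178, limma). Gapdhs, the gene above 0, was at 658 ± 10.6 and 673 ± 21.6 RPKM, with overlap. All Middle libraries were lower for 3 of 6 genes, beside 11.4% of all tested genes. Akap4 and Gapdhs are also among the elongating spermatid markers, so these lists are not separate. Round spermatid markers had a median of -0.16 (7 of 10 below 0) and elongating spermatid markers one of -0.16 (9 of 10 below 0), beside the CatSper median of -0.17. Pachytene spermatocyte markers were at 0.0018 (5 of 10 below 0), spermatogonium markers at 0.21 (6 of 7 tested above 0), Sertoli markers at 0.18 (8 of 9), Leydig markers at 0.16 (6 of 9), peritubular markers at 0.23 (7 of 8) and macrophage and blood markers at 0.13 (6 of 6). None of these marker genes passed over all genes.

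Summed over the lists, round spermatid markers were at 1272 to 1297 RPKM in Control and 1221 to 1302 in Middle, and elongating spermatid markers at 31174 to 34432 and 29390 to 31743. Spermatogonium markers were at 40.9 to 49.7 and 49.8 to 61.7 RPKM, Sertoli markers at 214 to 220.3 and 228 to 244, and pachytene markers at 3526 to 3534 and 3481 to 3514. Leydig markers were at 492 to 627 and 486 to 718, peritubular markers at 245 to 267 and 242 to 283, and macrophage and blood markers at 19.5 to 23.6 and 24.4 to 26.5 RPKM. Epididymis markers summed to 2.10 to 2.17 and 1.62 to 2.94 RPKM over the 4 of 6 found, of which 1 was tested and lay above 0. No marker found in the table was without reads in all libraries. The part of the mix of cells in the CatSper values was not tested. Catsper4 has a GC content of 52.1%, and with the GC trend removed its log2 fold change was -0.69 (adjusted p = 0.138, limma).

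The 5 other tested genes whose profile over the 6 libraries lay nearest to the mean profile of the CatSper genes were Ahcyl2, Ccdc174, Spesp1, Rap1a and Acbd5, at a root mean square distance of 0.0096 to 0.017 on the log2(RPKM + 1) scale. The mean CatSper profile was 0.10, 0.06 and 0.10 in Control replicates 1 to 3 and -0.24, 0.0068 and -0.035 in Middle replicates 1 to 3, each relative to the mean of the 6 libraries. It is thus mainly a low value in Middle replicate 1. With 15040 genes and 6 libraries, close profiles are easily found, and the likeness is a description.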

How the data were processed

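The deposited table gave each library's level of each gene as RPKM, scaled by the authors for gene length and reads, with exon coordinates, per the file headers and values. The build was GRCm39 and trimming was with fastp 0.23.0, per the submitters' processing notes. The sources used here do not name the aligner, counter, strand setting or annotation. For all genes, RPKM times gene length was a whole number of 1 step (tolerance 0.001), which gave the reads. Replicates of a group varied beyond counting error (chi-square over its degrees of freedom 6.26 to 34.4, genes with 20 or more reads in a pair), and each library is 1 replicate.

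limma 3.58.1 (R 4.3.3) with a trend was run on log2(RPKM + 1) for 15040 genes (23675 below the filter left out), two-sided, with Benjamini-Hochberg adjustment over all genes and a threshold of 0.05, and was tested on simulated data. On this scale fold changes of low genes are too small. Ratios are of mean RPKM. Exact permutation tests used SciPy 1.17.1. GC content (longest transcript, by symbol, 34736 genes matched) and transcript identity (blastn 2.17.0) came from GENCODE M21, and promoters and their coordinates from RefSeq GRCm38.p6.

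Members and lists were chosen with earlier results of these data known. Every CatSper gene, further channel and pathway genes above the filter, and the 5 nearest profiles were named by rule. Akap4, Gapdhs, Kcnk4, Pdia3 and Gm55816 were added after their values were seen. The alternatives were other pseudocounts (0.1, 0.01), filters and scalings, limma-voom on the recovered reads, a replicate block, removal of GC trends (loess, span 0.5) and leaving out each library.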

Additional observations from a re-analysis of the deposited data

How the results depend on the processing

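No CatSper gene passed an adjusted p of 0.05 under any of the 16 alternatives (limma or limma-voom). The count over all genes was 8 and became 0 without a filter, 0 with a replicate block and 0 to 3 with a library left out. Same-numbered libraries did not deviate together (correlations -0.15, -0.12 and 0.0054). The highest correlation of any Control with any Middle library was also weak, 0.16 for Control replicate 2 with Middle replicate 1. The numbers were thus not taken as pairs. The median log2 fold change of the CatSper genes ran from -0.23 (without Middle replicate 2) to -0.064 (without Middle replicate 1) with a library left out. Leaving out Middle replicate 1 moved it the most, though within the spread between libraries (SD 0.11). With the GC trend removed and all libraries kept it was -0.12. The difference between pore and auxiliary medians, 0.00039, ran from -0.056 to 0.042 with a library left out, was -0.10 with the GC trend removed and -0.079 with Middle replicate 1 also left out, an alternative added after seeing the data, as was leaving out the genes with shared exons or near-identical copies. Direction turned for Catsperd under median-of-ratios (-0.0041) and upper-quartile scaling (-0.0056), and with a library left out Catsperd ran from -0.012 to 0.038 and Catsperz from -0.067 to 0.010. The ratio of Catsper2 to the other pore genes ran from -0.092 to 0.073, that of Catsper1 from 0.15 to 0.22, that of Catsper3 from 0.34 to 0.58 and that of Catsper4 from -0.71 to -0.498 with a library left out. The other 8 genes kept their sign throughout, Catsper4 between -0.74 and -0.52. Depth limits no CatSper gene, each having at least 360 reads per library, and the spread between 3 libraries sets the intervals.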
